A study of Mus musculus with 16 samples.

Results

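The CXC chemokines Cxcl9, Cxcl10, Cxcl12, Cxcl13, Cxcl14 and Cxcl16 were followed in ventricular myocardium of mice that lacked the adenosine 2A receptor (A2AR, a receptor for extracellular adenosine that dampens many inflammatory responses) and of their wild-type littermates. These 6 genes were picked by symbol out of 18193 genes tested. Each was read from the probe set that carried its symbol alone and had the highest mean over the 16 arrays, and 6 further probe sets of the same genes served as a check. The 4 groups of 4 arrays were knockout (KO) hearts after lipopolysaccharide (LPS), KO hearts after saline, wild-type (WT) hearts after LPS and WT hearts after saline. LPS, the endotoxin of Gram-negative bacteria, was given as 1 intraperitoneal dose of 20 mg/kg, and hearts of all groups were taken 24 h after injection. All mice were males of 14 weeks on a CD1 background. The KO mice came from a sub-colony of an existing germline knockout line, so the receptor was missing in all cell types and not in the heart alone. Values are log2 array signals, which rank arrays for 1 probe set but do not rank probe sets among each other.

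Chemokines are small secreted proteins that direct the movement of leukocytes and progenitor cells through G protein-coupled receptors. Cxcl9 and Cxcl10 are barely made in resting tissue, are switched on by interferons, and attract activated T cells and NK cells through Cxcr3. The other members are often called homeostatic because tissues make them without inflammation. Cxcl12 from stroma and endothelium holds cells through Cxcr4 and is scavenged by Ackr3, Cxcl13 draws B cells through Cxcr5 into lymphoid follicles, Cxcl14 is made by epithelia and other resting tissues, and Cxcl16 is a membrane-bound ligand of Cxcr6 that can be shed. After LPS, Cxcl9, Cxcl10, Cxcl13, Cxcl14 and Cxcl16 were higher in both genotypes and Cxcl12 was lower on its chosen probe set but higher on another.

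RefSeq promoters (GRCm38.p6, 250 bases before to 50 bases after the start of the gene, read on the gene's strand) were at hand for 5 of the 6 members, all but Cxcl16. They are shown for the interferon-induced pair, for the member with a lower chosen probe set, and for Cxcl14, the other member with a match. Capitals mark matches on either strand to 3 motifs: the interferon-stimulated response element (ISRE, GAAA, 2 bases of any kind, GAAA), the gamma-activated site (GAS, TTCNNNGAA) and the kappaB site.
Cxcl9, chr5:92328030-92328329, minus strand: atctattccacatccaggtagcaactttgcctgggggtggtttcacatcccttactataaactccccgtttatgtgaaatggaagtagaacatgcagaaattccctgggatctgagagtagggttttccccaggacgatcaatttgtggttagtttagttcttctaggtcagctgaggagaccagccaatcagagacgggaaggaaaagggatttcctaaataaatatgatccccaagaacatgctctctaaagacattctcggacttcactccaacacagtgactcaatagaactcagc
Cxcl10, chr5:92348840-92349139, minus strand: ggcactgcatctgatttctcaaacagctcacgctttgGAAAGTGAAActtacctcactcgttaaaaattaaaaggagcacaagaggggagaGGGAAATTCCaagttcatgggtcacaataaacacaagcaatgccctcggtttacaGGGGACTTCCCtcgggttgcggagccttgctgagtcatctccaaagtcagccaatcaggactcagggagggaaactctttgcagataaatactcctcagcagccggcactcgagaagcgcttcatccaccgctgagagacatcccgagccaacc
Cxcl12, chr6:117168285-117168584, plus strand: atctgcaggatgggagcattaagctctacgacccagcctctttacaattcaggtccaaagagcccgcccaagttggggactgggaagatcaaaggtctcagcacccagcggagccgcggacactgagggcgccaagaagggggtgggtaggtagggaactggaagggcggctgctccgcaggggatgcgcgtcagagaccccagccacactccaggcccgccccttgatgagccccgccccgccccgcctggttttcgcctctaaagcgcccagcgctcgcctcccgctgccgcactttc
Cxcl14, chr13:56296502-56296801, minus strand: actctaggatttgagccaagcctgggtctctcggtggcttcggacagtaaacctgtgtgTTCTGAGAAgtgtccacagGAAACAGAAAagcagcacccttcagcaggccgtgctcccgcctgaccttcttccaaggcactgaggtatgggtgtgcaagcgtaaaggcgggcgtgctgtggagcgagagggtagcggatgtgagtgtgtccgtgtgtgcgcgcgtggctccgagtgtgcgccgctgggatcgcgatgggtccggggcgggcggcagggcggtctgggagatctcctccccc
In Cxcl10 the first capitals are an ISRE that begins 213 bases before the start, and the next blocks are kappaB matches that begin 159 and 104 bases before it, the second of which holds overlapping matches. In Cxcl14 the capitals are a GAS 191 bases and an ISRE 172 bases before the start. The ISRE letters occurred in 2 of the 5 member promoters and in 3.44% of 32851 promoter windows, the GAS letters in 1 of 5 and in 8.3%, and the kappaB site in 1 of 5 and in 8.46%. Cxcl9, Cxcl12 and Cxcl13 had no match to these letters in this window. Each motif was searched in a single form of fixed length. Elements of another spelling or length were not looked for, so a missing match does not show that a promoter lacks such elements. In the reference gene order of chromosome 5, Cxcl9, Art3, Cxcl10 and Cxcl11 follow each other, and Cxcl13 lies on the same chromosome.

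The first principal component of all genes took 66.3% of the variance and parted LPS from saline arrays. WT LPS replicate 4 lay nearest to the saline arrays on it (-7.58, against -32.85 to -50.48 in the other WT LPS arrays and 35.49 to 39.61 in WT saline arrays). WT saline replicates 1 and 4 carried skeletal muscle transcripts, whose marker mean was 7.24 and 9.04 there and 4.87 to 5.20 elsewhere. Values without these arrays are given where they apply. Ventricular cardiomyocyte markers averaged 13.3 to 13.9 in every array, and atrial markers were also well above the array median, at 10.7 to 11.96.

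Cxcl9 had the largest rise of the 6 on the chosen probe sets. Its KO LPS arrays read 11.56, 11.82, 11.17 and 11.09, against 5.71, 5.07, 5.11 and 4.43 in KO saline arrays. WT LPS arrays read 10.05, 11.81, 11.76 and 10.18, against 4.03, 4.58, 4.85 and 4.52 in WT saline arrays. Every LPS array lay far above every saline array, the KO LPS arrays lay close together, and WT LPS replicates 1 and 4 were the lowest of the LPS arrays. The log2 change was 6.33 ± 0.37 in KO hearts (± SE; limma adjusted p = 3.05e-09, 80.4-fold) and 6.45 ± 0.37 in WT hearts (limma adjusted p = 2.48e-09, 87.6-fold), the fifth largest rise of all genes tested in each genotype. The WT change was 6.71 without WT LPS replicate 4 and 6.24 without WT saline replicates 1 and 4. The WT saline mean, 4.495 ± 0.339 (SD, n = 4), was below the value of the median probe set (4.64), where background makes up much of the signal and the fold is less certain. A second probe set rose by 3.51 and 2.85 in KO and WT hearts (limma adjusted p = 1.67e-05 and 0.000152).

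Cxcl10, which shares the receptor Cxcr3 with Cxcl9, rose in both genotypes but with a wide spread among WT LPS arrays. KO LPS arrays read 9.08, 9.06, 9.15 and 7.91, against 4.22, 4.77, 4.78 and 4.76 in KO saline arrays. WT LPS arrays read 6.27, 10.13, 10.69 and 6.96, against 4.65, 4.34, 4.64 and 4.67 in WT saline arrays. WT LPS replicates 2 and 3 were above every KO LPS array, while replicates 1 and 4 were below every KO LPS array and still above every saline array. The log2 change was 4.17 ± 0.70 in KO hearts (limma adjusted p = 0.000304, 18.0-fold) and 3.94 ± 0.70 in WT hearts (limma adjusted p = 0.00063, 15.3-fold). The SD among LPS arrays was 2.22 in WT hearts and 0.594 in KO hearts. The WT change was 4.69 without WT LPS replicate 1, 3.21 without replicate 3 and 4.46 without replicate 4, and 4.02 without WT saline replicates 1 and 4. Mean saline levels (4.63 in KO and 4.57 in WT hearts) were at or under the array median. No second probe set of Cxcl10 was on the array.

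Cxcl13, the B cell attractant, rose in both genotypes from saline levels well above the array median. KO LPS arrays read 9.85, 8.46, 10.69 and 9.47, against 7.30, 6.64, 5.35 and 5.86 in KO saline arrays. WT LPS arrays read 11.10, 9.54, 8.79 and 11.51, against 5.50, 6.37, 6.58 and 6.87 in WT saline arrays. LPS and saline arrays did not overlap in either genotype. WT LPS replicates 1 and 4, the lowest of their group for Cxcl9 and Cxcl10, were the highest for Cxcl13. The log2 change was 3.33 ± 0.57 in KO hearts (limma adjusted p = 0.000379, 10.1-fold) and 3.91 ± 0.57 in WT hearts (limma adjusted p = 0.00011, 14.98-fold). Without WT LPS replicate 4 the WT change was 3.48, and without WT saline replicates 1 and 4 it was 3.76. A second probe set rose by 2.14 and 3.06 in KO and WT hearts (limma adjusted p = 0.00751 and 0.000627).

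Cxcl14 rose in both genotypes by nearly equal amounts. KO LPS arrays read 8.73, 8.54, 9.17 and 8.09, against 6.64, 7.27, 7.39 and 6.60 in KO saline arrays. WT LPS arrays read 8.99, 8.98, 8.52 and 7.71, against 7.06, 7.28, 6.68 and 6.43 in WT saline arrays. WT LPS replicate 4 was the lowest LPS array and KO saline replicate 3 the highest saline array, with a gap between them. The log2 change was 1.66 ± 0.29 in KO hearts (limma adjusted p = 0.000456, 3.16-fold) and 1.69 ± 0.29 in WT hearts (limma adjusted p = 0.000501, 3.22-fold). It was 1.97 in WT hearts without WT LPS replicate 4 and 1.57 without WT saline replicates 1 and 4. A second probe set, whose suffix marks probes shared by several transcripts of the gene, rose less, by 0.63 and 0.72 in KO and WT hearts (limma adjusted p = 0.0309 and 0.0171).

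Cxcl16 had the smallest change of the 6 on the chosen probe sets. KO LPS arrays read 6.91, 6.94, 7.17 and 6.90, against 6.66, 6.37, 6.54 and 6.30 in KO saline arrays. WT LPS arrays read 7.22, 7.20, 6.999 and 7.68, against 6.14, 6.57, 6.46 and 6.37 in WT saline arrays. The groups did not overlap in either genotype, though in KO hearts the lowest LPS array stood little above the highest saline array. The log2 change was 0.51 ± 0.14 in KO hearts (limma adjusted p = 0.0126, 1.43-fold) and 0.89 ± 0.14 in WT hearts (limma adjusted p = 0.000252, 1.85-fold), 0.75 without WT LPS replicate 4 and 0.76 without WT saline replicates 1 and 4. A second probe set, whose suffix marks probes that may match transcripts of other genes too, rose more, by 1.42 and 1.62 in KO and WT hearts (limma adjusted p = 0.000315 and 0.000116), and the mean over both rose by 0.97 and 1.26.

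Cxcl12 was the member whose probe sets disagreed. On the chosen probe set KO LPS arrays read 8.48, 8.06, 9.09 and 8.42, against 11.05, 10.58, 10.59 and 10.54 in KO saline arrays. WT LPS arrays read 8.90, 8.24, 7.86 and 9.62, against 10.29, 10.30, 10.75 and 10.81 in WT saline arrays. All LPS arrays lay below all saline arrays, and WT LPS replicate 4 came closest to them. The log2 change was -2.17 ± 0.30 in KO hearts (limma adjusted p = 4.37e-05) and -1.88 ± 0.30 in WT hearts (limma adjusted p = 0.000205), and -2.20 in WT hearts without WT LPS replicate 4 and -1.87 without WT saline replicates 1 and 4. From the lowest change upwards these were ranks 65 and 79 of all genes tested.

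The second probe set of Cxcl12, next in mean signal, moved the other way. KO LPS arrays read 8.29, 8.05, 8.63 and 8.41, against 7.61, 7.50, 7.41 and 7.46 in KO saline arrays, and WT LPS arrays read 8.61, 8.21, 8.20 and 8.16, against 7.33, 7.24, 7.42 and 7.45 in WT saline arrays. All LPS arrays lay above all saline arrays, with a log2 change of 0.85 ± 0.13 in KO hearts (limma adjusted p = 0.000168) and 0.94 ± 0.13 in WT hearts (limma adjusted p = 8.51e-05), adjusted over all single-symbol probe sets. The last probe set, the dimmest of the 3, changed by -0.46 in KO hearts (limma adjusted p = 0.0127) and by -0.35 in WT hearts (limma adjusted p = 0.064, not called). RefSeq lists 3 curated mRNAs of Cxcl12, and the target sequence named for the chosen probe set is 1 of them, whereas those named for the other probe sets are not RefSeq entries. With the mean over the 3 probe sets the change was -0.59 in KO hearts (limma adjusted p = 0.00452) and -0.43 in WT hearts (limma adjusted p = 0.036). Which transcripts each probe set detects was not tested.

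**Figure D1:**
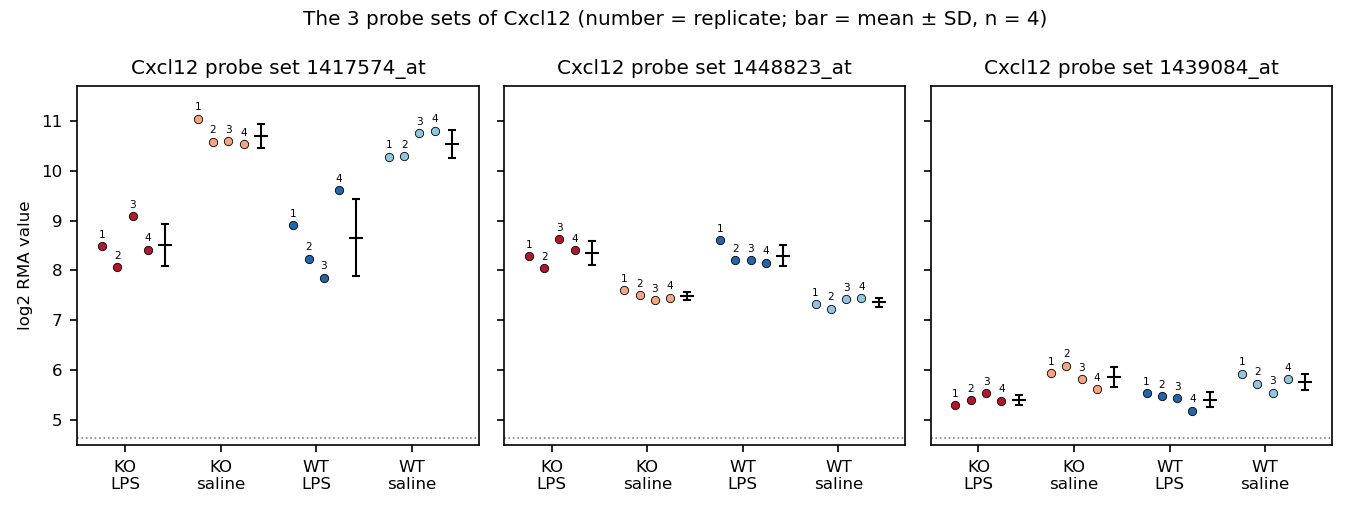
Log2 RMA value (vertical axis) of the 3 probe sets of Cxcl12 in each array, by group, with replicate numbers, mean ± SD (n = 4) and the median over probe sets as a dotted line. LPS arrays lie below saline arrays on the chosen probe set (left) and above them on the second (middle).

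On the chosen probe sets all 6 members were called in both LPS comparisons at an adjusted p under 0.05, 5 higher and 1 lower, where limma called 26.1% of all genes in KO hearts (11.4% higher and 14.7% lower) and 20.9% in WT hearts (9.28% higher and 11.6% lower). The LPS arrays were apart from the saline arrays for all 6 in both genotypes, as they were for 28.5% of all genes in KO hearts and 22.8% in WT hearts. The median log2 change of the 6 was 2.49 in KO and 2.80 in WT hearts, beside -0.02 and -0.00 over all genes tested. Cxcl9 and Cxcl10 thus rose by 4.17 or more in KO hearts and by 3.94 or more in WT hearts, and the 4 homeostatic members ran from -2.17 to 3.33 in KO hearts and from -1.88 to 3.91 in WT hearts. The lower ends are those of Cxcl12 on its chosen probe set, and with its second probe set (0.85 and 0.94) all 4 homeostatic members were higher after LPS in both genotypes. The 95% intervals of Cxcl13 (2.12 to 4.55 in KO and 2.69 to 5.12 in WT hearts) overlapped those of Cxcl10 (2.68 to 5.65 in KO and 2.46 to 5.42 in WT hearts), whose saline signal lay near background and may understate its change. Those of Cxcl9 on its chosen probe set (5.55 to 7.11 and 5.67 to 7.23) lay above those of all 4 homeostatic members. On its second probe set Cxcl9 rose by 3.51 in KO and 2.85 in WT hearts, beside 3.33 and 3.91 for Cxcl13. The separation from Cxcl13 thus rested on the chosen probe set of Cxcl9. In bulk tissue, fewer cells of a type and less RNA per cell cannot be told apart, and the same holds for more cells and more RNA per cell.

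**Figure D2:**
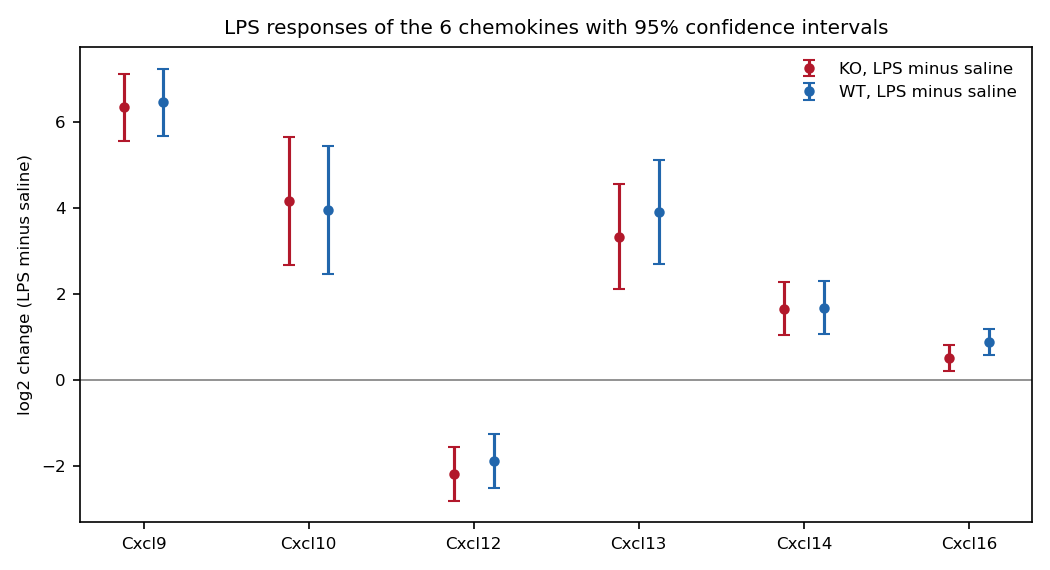
Log2 change, LPS minus saline (vertical axis), of each chemokine in KO and WT hearts, as points with 95% confidence intervals from limma. The 2 genotypes overlap for each gene, Cxcl9 is highest at 6.33 and 6.45, and Cxcl12 is the only one below 0 on its chosen probe set.

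The interferon-induced pair and the homeostatic members were also set against each other within each array. For this, each gene was centred on its mean over the 16 arrays, and the mean of the 4 homeostatic members was taken from the mean of Cxcl9 and Cxcl10. The difference was 2.58, 3.20, 1.89 and 2.04 in KO LPS arrays, against -2.19, -2.04, -1.77 and -1.97 in KO saline arrays. It was -0.14, 3.24, 3.94 and 0.20 in WT LPS arrays, against -2.15, -2.42, -2.12 and -2.27 in WT saline arrays. KO LPS arrays were close to each other, whereas among WT LPS arrays replicates 2 and 3 stood well apart from replicates 1 and 4. Without Cxcl12, whose probe sets disagree, the difference was 1.39 to 2.70 in KO LPS arrays, against -1.66 to -1.24 in KO saline arrays, and -0.70, 2.64, 3.36 and -0.15 in WT LPS arrays, against -2.04 to -1.59 in WT saline arrays.

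**Figure D3:**
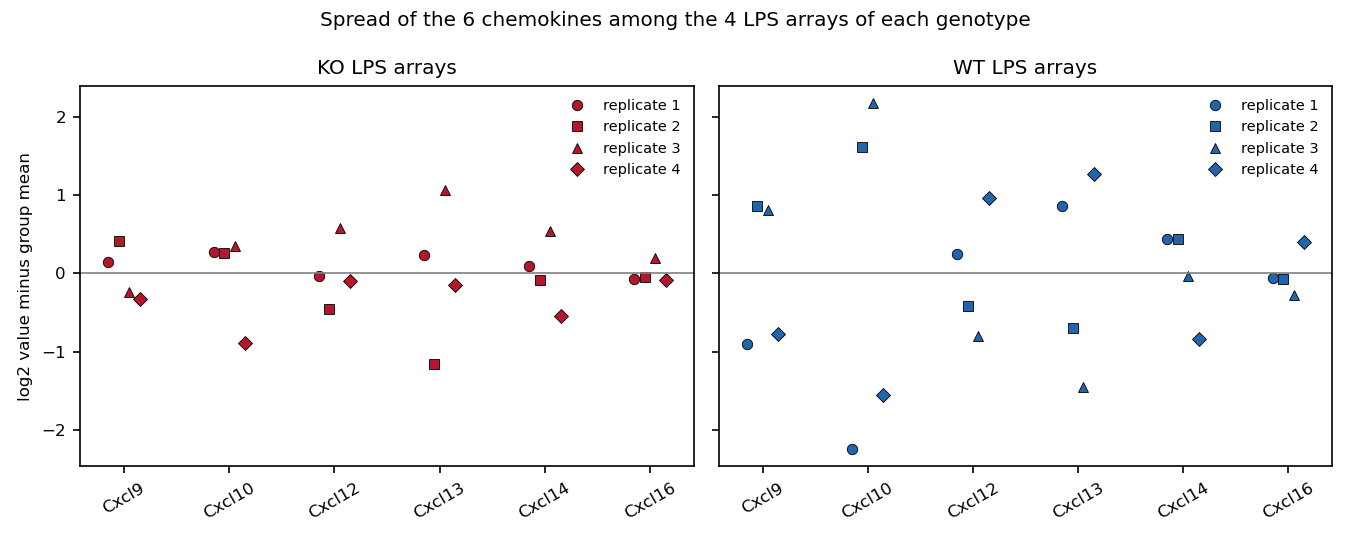
Log2 value minus its group mean (vertical axis) of each chemokine in the 4 KO LPS arrays (left) and the 4 WT LPS arrays (right), with 1 symbol per replicate. In WT arrays replicates 2 and 3 are above the mean for Cxcl9 and Cxcl10 and below it for Cxcl12 and Cxcl13, and replicates 1 and 4 the reverse.

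With group means taken out, Cxcl12 and Cxcl13 varied together over the 16 arrays (Pearson r = 0.902, Spearman rho = 0.909), also without the WT LPS arrays (r = 0.858) and without the 2 arrays farthest from the median for Cxcl12 (r = 0.874). Cxcl12 is read here from its chosen probe set, on which its change after LPS had the sign opposite to that of Cxcl13, whereas its second probe set had the same sign as Cxcl13. Cxcl9 and Cxcl10 gave r = 0.76 (rho = 0.568), and 0.606 without the 2 farthest arrays, but -0.0127 without the 4 WT LPS arrays, so this relation rested on them. Cxcl10 and Cxcl12 gave r = -0.662, which was 0.0354 without the WT LPS arrays. Cxcl16 gave r = 0.773 with Cxcl12 and 0.681 with Cxcl13, and 0.562 and 0.547 without the WT LPS arrays. These values describe 15 pairs of genes that share the same arrays, and no test was made of them.

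The spread of Cxcl12, Cxcl13 and Cxcl16 went with that of several marker lists. With group means taken out, Cxcl12 followed the mean of 7 endothelial markers with r = 0.95 (0.925 without WT LPS replicate 4) and Cxcl13 did so with r = 0.84 (0.848 without it). For fibroblast, macrophage and epicardial markers r was 0.86, 0.828 and 0.753 with Cxcl12 and 0.779, 0.749 and 0.664 with Cxcl13, and for smooth muscle and pericytes 0.646 and 0.586. Without WT LPS replicate 4 these 4 lists gave 0.775, 0.74, 0.586 and 0.49 with Cxcl12. With Cxcl13 they gave 0.742, 0.691, 0.584 and 0.483. Cxcl16 gave r = 0.81 with endothelial markers (0.682 without WT LPS replicate 4). With fibroblast, macrophage, epicardial and smooth muscle markers its r was 0.674, 0.668, 0.739 and 0.598. Without that array these were 0.47, 0.495, 0.559 and 0.419. With atrial cardiomyocyte markers the r of Cxcl16 was 0.762, and 0.676 without that array, so its spread did not single out vascular or stromal lists. Cxcl9 and Cxcl10 gave negative r with endothelial, fibroblast, macrophage and epicardial markers. These were -0.445, -0.608, -0.62 and -0.437 for Cxcl9 and -0.564, -0.588, -0.58 and -0.75 for Cxcl10. Without WT LPS replicate 4 they were -0.272, -0.511, -0.53 and -0.259 for Cxcl9 and -0.435, -0.472, -0.468 and -0.715 for Cxcl10. The endothelial mean ran from 7.49 to 8.18 in KO LPS arrays, against 8.39 to 8.85 in KO saline arrays, and from 7.61 to 8.81 in WT LPS arrays, against 8.37 to 8.69 in WT saline arrays. WT LPS replicate 4 held the highest of these WT LPS values and KO LPS replicate 2 the lowest of all. Over all genes, 14.7% fell in KO and 11.6% in WT hearts. Of the 7 endothelial markers, 4 fell in KO hearts and 2 in WT hearts (Kdr, the VEGF receptor, by 0.71 and 0.75, and Emcn, a sialomucin, by 0.94 and 0.69). The part of these transcripts in the lower Cxcl12 signal was not tested.

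No difference between genotypes passed the test for any member. After LPS, KO minus WT was 0.46 ± 0.37 for Cxcl9 (95% interval -0.32 to 1.24, limma adjusted p = 0.757) and 0.29 ± 0.70 for Cxcl10 (-1.20 to 1.77, limma adjusted p = 0.933). For Cxcl12 it was -0.14 ± 0.30 (-0.76 to 0.49), for Cxcl13 -0.62 ± 0.57 (-1.83 to 0.60) and for Cxcl14 0.08 ± 0.29 (-0.54 to 0.70). Cxcl16 came closest, with -0.29 ± 0.14 (-0.59 to 0.0088, limma adjusted p = 0.666). Limma called 0 of the 6 after LPS, 0 after saline and 0 for the difference between the LPS responses, where 0.0055%, 0.0055% and 0% of all genes were called. At an unadjusted p under 0.05 the count was also 0 of 6 in each of the 3, beside 7.56%, 3.48% and 4.47% of all genes. KO and WT arrays overlapped for all 6 after either treatment, while 2.26% of all genes after LPS and 3.89% after saline did not overlap.

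After saline, the KO minus WT value was 0.58 ± 0.37 for Cxcl9 (-0.19 to 1.36) and between -0.04 and 0.15 for the other 5. The LPS response of KO hearts minus that of WT hearts was -0.12 ± 0.52 for Cxcl9 (-1.22 to 0.98), 0.23 ± 0.99 for Cxcl10 (-1.87 to 2.33) and -0.29 ± 0.42 for Cxcl12 (-1.18 to 0.59). It was -0.57 ± 0.81 for Cxcl13 (-2.29 to 1.14), -0.03 ± 0.41 for Cxcl14 (-0.90 to 0.85) and -0.37 ± 0.20 for Cxcl16 (-0.80 to 0.052). The intervals of Cxcl10 and Cxcl13 leave room for differences of more than 1 log2 unit in either direction, so a missing call does not show that the genotypes respond alike.

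Of the 5 receptors of these chemokines, only Cxcr4 was called in both genotypes, where 26.1% of all genes were called in KO and 20.9% in WT hearts. Cxcr4, the signalling receptor of Cxcl12, read 4.46, 3.93, 3.68 and 3.71 in KO LPS arrays, against 5.92, 5.50, 5.40 and 5.29 in KO saline arrays. It read 3.92, 3.39, 3.62 and 4.32 in WT LPS arrays, against 5.28, 5.35, 5.67 and 5.35 in WT saline arrays. All LPS arrays were below all saline arrays, and the log2 change was -1.58 ± 0.20 in KO hearts (limma adjusted p = 2.01e-05) and -1.60 ± 0.20 in WT hearts (limma adjusted p = 2.11e-05). The LPS levels lay under the array median, so these sizes too depend on background.

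Cxcr3, the receptor of Cxcl9 and Cxcl10, changed by -0.32 ± 0.09 in KO hearts (limma adjusted p = 0.015) and by -0.12 ± 0.09 in WT hearts (limma adjusted p = 0.434), and the difference between these changes was not called. Ackr3, the scavenger of Cxcl12, changed by 0.28 and 0.21 and was not called. Cxcr5 and Cxcr6, the receptors of Cxcl13 and Cxcl16, lay under the array median in every array and were not called. The median over the 5 receptors was -0.12 in KO and -0.11 in WT hearts.

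Cxcl11, the other Cxcr3 ligand, rose by 2.38 ± 0.62 in KO hearts (limma adjusted p = 0.00832) and by 1.93 ± 0.62 in WT hearts (limma adjusted p = 0.0332). It read 4.73, 7.46, 7.06 and 3.78 in WT LPS arrays, so that WT LPS replicates 1 and 4 were again the lowest, and replicate 4 lay within the range of the WT saline arrays (3.61 to 3.98). A second, dimmer probe set of Cxcl11 changed by 0.37 and 0.26 in KO and WT hearts and was not called (limma adjusted p = 0.161 and 0.385). The reference annotation, built on another strain, lists the gene as a transcribed pseudogene. Among 5 genes that act on chemokine proteins, Ackr1, the atypical receptor of venules and red cells, rose by 1.72 and 2.02 in KO and WT hearts. Dpp4, the protease that trims the ends of Cxcl9, Cxcl10 and Cxcl12, fell by 0.95 in both, and Adam17, a sheddase, fell by 0.34 and 0.36. Adam10, which sheds Cxcl16, and Ackr4 were not called.

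**Figure D4:**
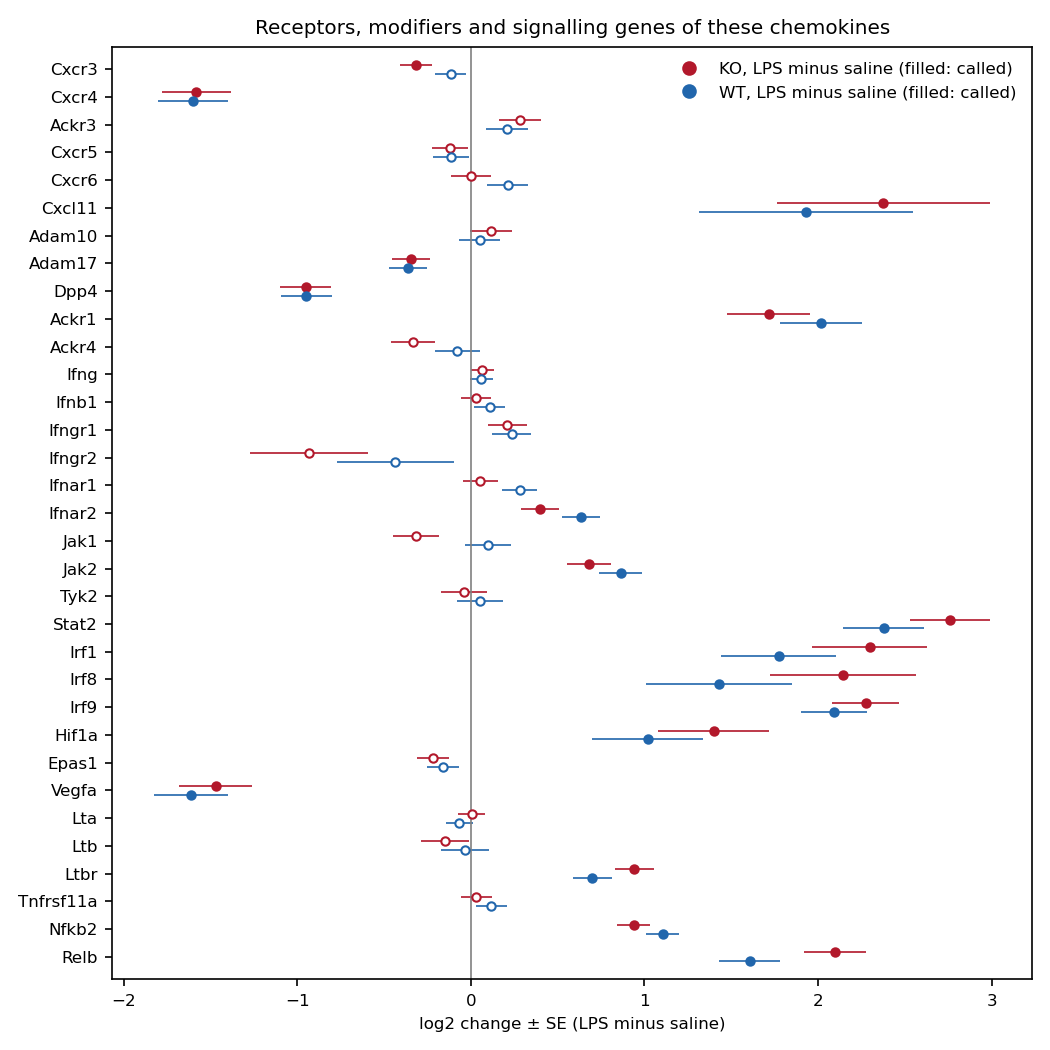
Log2 change, LPS minus saline, ± SE (horizontal axis) of receptors, modifying genes and signalling genes of these chemokines in KO and WT hearts, with filled points for called genes. Cxcr4 (-1.58 and -1.60) and Vegfa (-1.47 and -1.61) lie farthest to the left and Stat2 (2.76 and 2.38) farthest to the right in both genotypes.

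Of 13 measured genes of interferon signalling, 6 rose in each genotype and 7 were not called, with a median of 0.21 in KO and 0.28 in WT hearts. The share of all genes that rose was 11.4% in KO and 9.28% in WT hearts. Stat2 and Irf9, which form the factor that binds the ISRE, rose by 2.76 and 2.28 in KO hearts and by 2.38 and 2.09 in WT hearts. Irf1, an activator of many interferon-responsive promoters, rose by 2.297 in KO and 1.77 in WT hearts, and Irf8 by 2.14 and 1.43. The receptor chain Ifnar2 and the kinase Jak2 rose by 0.40 and 0.68 in KO hearts and by 0.63 and 0.86 in WT hearts. The interferon genes themselves, Ifng and Ifnb1, changed by 0.07 and 0.03 in KO hearts and by 0.06 and 0.11 in WT hearts, at levels under the array median.

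Of 9 measured regulators linked to the homeostatic members, 4 rose and 1 fell in each genotype. Among all genes 11.4% rose and 14.7% fell in KO hearts, and 9.28% rose and 11.6% fell in WT hearts. Ltbr, Nfkb2 and Relb, parts of the lymphotoxin pathway that drives Cxcl13 in lymphoid stroma, rose by 0.94, 0.94 and 2.10 in KO hearts and by 0.70, 1.11 and 1.61 in WT hearts. The ligands of this pathway, Lta and Ltb, were not called, at group means under the array median. Hif1a, the hypoxia factor that can induce Cxcl12, rose by 1.40 in KO and 1.02 in WT hearts, and its target Vegfa fell by 1.47 and 1.61.

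Markers of the cells these chemokines attract or come from were followed as well. Their counts stand beside shares over all genes of 11.4% higher and 14.7% lower in KO hearts. In WT hearts these shares were 9.28% and 11.6%. Of 11 markers of T and NK cells, 1 rose and 0 fell in KO hearts, and 2 rose and 1 fell in WT hearts, and their mean was 4.37 to 4.54 in KO LPS arrays, against 4.30 to 4.40 in KO saline arrays, and 4.40 to 4.4998 in WT LPS arrays, against 4.35 to 4.44 in WT saline arrays. Gzmb, a cytotoxic granule protease, rose by 0.42 and 0.43 at group means under the array median. Gzma, another such protease, rose by 0.45 in WT hearts (limma adjusted p = 0.0398). In KO hearts it changed by 0.35 without a call (limma adjusted p = 0.0977), and its group means of 4.74 to 5.34 were above the array median. Perforin (Prf1), another granule protein, changed by -0.17 in KO hearts without a call and fell by 0.41 in WT hearts, and the T cell receptor subunit Cd3d changed by 0.11 and 0.25 without a call. All 6 markers of B cells and follicular dendritic cells had group means under the array median, and Ms4a1 fell by 0.58 and 0.63.

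Of 11 markers of macrophages, monocytes and dendritic cells, 2 rose and 2 fell in each genotype. Limma called 11.4% of all genes higher and 14.7% lower in KO hearts, and 9.28% and 11.6% in WT hearts. Mpeg1 and Itgam rose by 2.64 and 2.38 in KO hearts and by 2.65 and 2.47 in WT hearts, while Csf1r and Mrc1 fell by 1.35 and 0.98 in KO hearts and by 0.90 and 1.23 in WT hearts. Their list mean was 5.91 to 6.54 in KO LPS arrays, against 6.02 to 6.13 in KO saline arrays, and 6.14 to 6.82 in WT LPS arrays, against 6.06 to 6.18 in WT saline arrays. Of 7 fibroblast markers 3 fell in each genotype, and the list mean was 8.56 to 9.34 in KO LPS arrays, against 9.88 to 9.95 in KO saline arrays, and 8.68 to 9.81 in WT LPS arrays, against 9.92 to 10.06 in WT saline arrays. Of 6 markers of smooth muscle and pericytes 4 fell in each genotype, with means of 8.93 to 9.18 in KO LPS arrays, against 9.54 to 9.99 in KO saline arrays, and of 8.42 to 9.13 in WT LPS arrays, against 9.66 to 10.05 in WT saline arrays. Of 6 epicardial and mesothelial markers 2 fell in each genotype, and of 7 ventricular cardiomyocyte markers 4 fell in KO and 3 in WT hearts. Their part in the changes of the 6 chemokines was not tested.

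The genes most like each member over the 16 arrays were listed by Pearson r, which mostly carries the step between LPS and saline, with r after group means were taken out beside it. Gbp2, Gbp6 and Gbp3, interferon-induced GTPases, were most like Cxcl9 (r = 0.9953, 0.9947 and 0.993, and 0.903, 0.882 and 0.847 within groups). Ifit2, an interferon-induced RNA-binding protein, Marchf5 and Ccrl2 were most like Cxcl10 (0.9812, 0.9809 and 0.9793, and 0.913, 0.923 and 0.951 within groups). Ptprb, a phosphatase of endothelium, Cmtm8 and Igfbp5 were most like Cxcl12 (0.9851, 0.9837 and 0.9828, and 0.893, 0.954 and 0.922 within groups).

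For Cxcl13 these were Vps53, Fcer1g and the monocyte attractant Ccl7 (0.9651, 0.9629 and 0.9613, and 0.845, 0.817 and 0.798 within groups). For Cxcl14 they were Car13, Pim3 and E230013L22Rik (0.9611, 0.9577 and 0.9576, and 0.795, 0.798 and 0.807 within groups). For Cxcl16 they were Fcer1g, the common chain of several Fc receptors, Apobec1 and the pore-forming Gsdmd (0.9565, 0.9537 and 0.9514, and 0.775, 0.797 and 0.864 within groups). Fcer1g was the 1 gene named for more than 1 member, Cxcl13 and Cxcl16.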

How the data were processed

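Heart RNA was hybridised to 16 Affymetrix arrays, and the authors deposited 1 log2 value per probe set and array, made with RMA (background correction, quantile normalization and summary of probes), per the submitters' processing notes. Its version is not given in the sources used here. Precision is limited by the number of arrays. Of 45101 probe sets, 34945 carried a single symbol in the platform annotation, of which 34741 were matched to GRCm38.p6 by Entrez identifier. The probe set with the highest mean was kept per gene.

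Limma 3.58.1 (R 4.3.3) fitted the 4 group means to the 16 arrays together, which left 12 residual degrees of freedom, and moderated the variances along an intensity trend. P-values are two-sided and adjusted by Benjamini-Hochberg over 18193 genes, and genes under 0.05 were called. Those of probe sets that were not chosen come from a fit to all 34945 single-symbol probe sets and are adjusted over these. "Rose" and "fell" are used for called genes. The fit was checked on simulated data. The labels do not say which arrays, if any, share an animal, so p-values measure the spread between these arrays. The members and lists were chosen with earlier results of these data known. Genes named are the members, their receptors, genes of the lists and, per member, the 3 genes with the highest Pearson r. Motifs were searched with Python 3.11.15. The targeted receptor's own level is not reported here, so genotype rests on the labels. Alternatives were the replicate block, variance priors, probe set choice, a filter on dim genes, scaling, and arrays left out. Use of the other probe sets singly, and of the per-array contrast without Cxcl12, was chosen after seeing the data. A planned description of protein sequences was not run.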

Additional observations from a re-analysis of the deposited data

Results flagged for a closer look

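Of 80 sets of 4 values (1 probe set in 1 group) checked for an array far from its group, 9 had one, and chance alone gives about 1 in 20. Cxcl10 had 3: KO LPS replicate 4 at 7.91 (the others 9.06 to 9.15), KO saline replicate 1 at 4.22 (the others 4.76 to 4.78) and WT saline replicate 2 at 4.34 (the others 4.64 to 4.67). For Cxcl16, KO LPS replicate 3 was high on both probe sets, at 7.17 (the others 6.90 to 6.94) and at 6.82 (the others 6.27 to 6.36). For Cxcl12, KO saline replicate 1 was high at 11.05 on the chosen probe set (the others 10.54 to 10.59), and WT LPS replicate 1 was high at 8.61 on the second one (the others 8.16 to 8.21). On probe sets that were not chosen, Cxcl9 was low at 3.90 in WT saline replicate 3 (the others 4.03 to 4.06) and Cxcl11 was high at 4.12 in KO LPS replicate 2 (the others 3.11 to 3.19). No cause was tested.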

How the results depend on the processing

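The 12 LPS changes of the 6 members kept direction and call under the replicate block, the other variance priors, scalings, filter and sample sets, the mean over probe sets, and each of the 16 arrays left out in turn (highest adjusted p 0.0457, Cxcl16 in KO hearts). The exceptions came with other probe sets, a comparison chosen after seeing the data: Cxcl12 changed by 0.85 in KO and 0.94 in WT hearts on its second probe set, and by -0.35 in WT hearts on the dimmest probe set, no longer called. No KO minus WT value or difference of responses was called under any alternative, so their signs carry little weight, and the cause of each turn below was not tested. On other probe sets the difference of responses of Cxcl9 was 0.66, KO minus WT after LPS was 0.051 for Cxcl12 (second probe set) and -0.15 for Cxcl14, and KO minus WT after saline was -0.037 for Cxcl9, 0.19 for Cxcl13, -0.058 for Cxcl14 and -0.086 for Cxcl16. With the mean over probe sets, the difference of responses of Cxcl9 was 0.27, KO minus WT after LPS was -0.035 for Cxcl14, and after saline it was 0.072 for Cxcl13 and -0.0024 for Cxcl16. Without WT saline replicates 1 and 4, the difference of responses was 0.093 for Cxcl9 and 0.090 for Cxcl14, and KO minus WT after saline was -0.0073 for Cxcl14 and -0.048 for Cxcl16. With 1 array left out at a time, the difference of responses ran from -0.42 to 0.16 for Cxcl9, -0.52 to 0.95 for Cxcl10, -0.56 to 0.027 for Cxcl12 and -0.31 to 0.15 for Cxcl14. KO minus WT after LPS ran from -0.46 to 1.01 for Cxcl10, -0.40 to 0.18 for Cxcl12 and -0.20 to 0.26 for Cxcl14, and after saline from -0.016 to 0.20 for Cxcl10, -0.38 to 0.27 for Cxcl13 and -0.033 to 0.25 for Cxcl14. Of all genes, limma called 4744 in KO and 3798 in WT hearts after LPS, and 2061 in WT hearts without WT saline replicates 1 and 4. Counted as probe sets of 34945 tested, several per gene, 7611 and 6024 were called in KO and WT hearts. For KO against WT after LPS the count was 1 gene, and 2 probe sets when all were tested, 0 with the arrays of both groups alone, 0 without WT saline replicates 1 and 4, and 0 to 3 with 1 array left out. After saline it was 1, and 0 without dim genes, 14 with the arrays of both groups alone, and 1 to 5 with 1 array left out. Arrays with the same replicate number did not deviate together (24 pairs, r from -0.271 to 0.33, 3 over 0.1), and 4 of 16 arrays correlated best with their own number. With the replicate block all 12 LPS calls held (Cxcl16 in KO hearts, 0.51, adjusted p 0.0272), and 4487 and 3537 genes were called in KO and WT hearts. Searching the gene's strand alone left the counts of member promoters with a motif as they were. Signals near the array median limit the size of the changes of Cxcl9, Cxcl10, Cxcl11, Cxcr3, Cxcr4, Ackr1, Dpp4, Itgam, Gzmb, Prf1 and Ms4a1.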
